A study of Macaca mulatta with 27 samples.

Results

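The 10 rhesus macaque embryonic stem cell lines of this study were grouped by the signal of MmuMitochon.6.1.S1_s_at, a probe set designed on the mitochondrial genome. The level of a probe set was log2(signal + 16), averaged over the arrays of a line. Lines 106, 206, 306, 2406 and 3806 stood above 14, and lines 906, 2706, 2906, 3006 and 3106 stood below it. The split thus sets 5 of the 10 lines, with 14 arrays, against the other 5, with 13 arrays. The lowest line above the limit was 2406, at 14.97, and the highest line below it was 906, at 13.21, so no line lay close to 14. Because the lines were chosen by mitochondrial signal, the values of the mitochondrial probe sets are given as a description, with no test between the groups. These 6 probe sets were left out of every count of probe sets tested or passing. The closing search for lines that stand apart within a group does include them.

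The mitochondrial genome is a small circular DNA that is passed on by the mother and is present in many copies per cell. It encodes core subunits of the respiratory chain and of ATP synthase together with the ribosomal and transfer RNAs needed to make them, while the nucleus encodes the remaining subunits, the mitochondrial ribosomal proteins and the polymerases that copy and transcribe the mitochondrial DNA. Pluripotent stem cells draw much of their energy from glycolysis and hold few mature mitochondria.

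All lines came from inner cell masses of blastocysts and were grown on mitomycin-treated mouse embryonic fibroblasts with basic FGF, activin A and human LIF. Colonies were scraped off the feeder layer, and total RNA was hybridised to Affymetrix rhesus arrays. Among the lines above 14, lines 106, 206 and 306 have dam F244, line 2406 has dam F77 and line 3806 has dam F32, and all 5 have sire M106. Among the lines below 14, line 906 has dam F183 and sire M36, and lines 2706, 2906, 3006 and 3106 have dam F88 and sire M106. No dam has lines on both sides, so mitochondrial signal and dam cannot be told apart, and lines of the same dam are not independent of each other. There were 2 male and 3 female lines above 14, and 3 male and 2 female lines below it. Line 2906 has 1 array, line 206 has 2 and every other line has 3. Whether a line's arrays were made from separate cultures is not stated in the labels, and the comparisons therefore used the mean of each line.

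Measures of array quality overlapped between the groups. The mean median signal of a line ran from 104.4 to 127.2 above 14 and from 115.5 to 122.3 below it (exact permutation test over lines, 2-sided, p = 0.8175; the smallest p that 5 against 5 lines allow is 0.007937). Probe sets called present by the authors' detection calls made up 43.1% to 45.1% in the lines above 14 and 41.65% to 44.61% in the lines below it (exact permutation p = 0.2937). GAPDH signal at the 3' end over that at the 5' end, a measure that rises with RNA degradation, was 1.935 to 2.73 above 14 and 1.617 to 13.29 below it (exact permutation p = 0.4365). The value of 13.29 belongs to the only array of line 2906, and line 3006 was at 4.18. The number of lines limits the precision of every value.

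POU5F1, a transcription factor at the centre of the pluripotent state, averaged 14.33 ± 0.11 in the lines above 14 and 14.43 ± 0.17 in the lines below it (SD, n = 5 lines each). SOX2, its partner factor, averaged 13.88 ± 0.25 above 14 and 14.11 ± 0.18 below it, and DNMT3B, a de novo DNA methyltransferase, 13.70 ± 0.10 above 14 and 13.60 ± 0.31 below it. These markers of the labelled cell type were therefore present on both sides of the split. None of POU5F1, SOX2, DNMT3B, NANOG and DPPA4 passed the test described below (adjusted p between 0.773 and 0.954).

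The mitochondrial probe sets did not move as a block: 3 of 6 separated the groups without overlap of line means, and the other 3 did not. Among those that separated is the probe set of the rule, whose separation was fixed by the choice of lines. In what follows, line values stand in the order 106, 206, 306, 2406 and 3806 for the lines above 14 and 906, 2706, 2906, 3006 and 3106 for the lines below it. MmuMitochon.6.1.S1_s_at, which chose the groups, stood at 15.29, 15.32, 15.18, 14.97 and 15.36 in the lines above 14, against 13.21, 11.13, 10.85, 11.73 and 10.86 in the lines below it. Its group means were 15.22 ± 0.16 above 14 and 11.56 ± 0.99 below it (SD, n = 5 lines each), 3.67 log2 units apart. The lines above 14 were close to each other, whereas below 14 line 906 stood above each of the 4 lines of dam F88.

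MmuMitochon.10.1.S1_s_at had the same order of groups. It stood at 14.56, 14.63, 14.44, 14.17 and 14.71 in the lines above 14, against 12.81, 12.02, 10.38, 12.62 and 11.96 in the lines below it, a difference of 2.54 log2 units. Over single arrays it ran from 14.06 to 15.19 above 14 and from 10.38 to 13.11 below it, so that no array of a low line reached the lowest array of a high line. For MmuMitochon.3.1.S1_s_at the line means barely separated, at 15.30, 15.35, 15.07, 15.00 and 15.31 above 14, against 14.27, 14.05, 12.95, 14.98 and 14.15 below it. Line 3006 came within a few hundredths of line 2406, and the single arrays overlapped.

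The remaining probe sets drew other lines between the samples. MmuMitochon.4.1.S1_at stood at 15.26, 15.12, 14.97, 14.85 and 15.22 in the lines above 14, against 15.55, 13.73, 13.95, 13.71 and 13.81 in the lines below it. Line 906 thus had the highest value of all 10 lines for this probe set, and the lines of dam F88 alone were low. MmuMitochon.12.1.S1_s_at stood at 14.73, 14.80, 14.62, 14.54 and 14.95 above 14, against 15.22, 14.71, 14.95, 15.42 and 14.82 below it, with overlapping groups and a difference of -0.30 log2 units. MmuMitochon.13.1.S1_at, the dimmest of the set, averaged 9.94 ± 0.46 above 14 and 10.01 ± 0.91 below it. All 6 were called present on all 27 arrays, and the platform annotation used here gives no gene for any of them. Besides the probe set of the rule, whose separation was fixed in advance, 2 others separated the groups by line mean. The label of mitochondrial signal therefore does not hold for the mitochondrial probe sets as a whole.

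**Figure D1:**
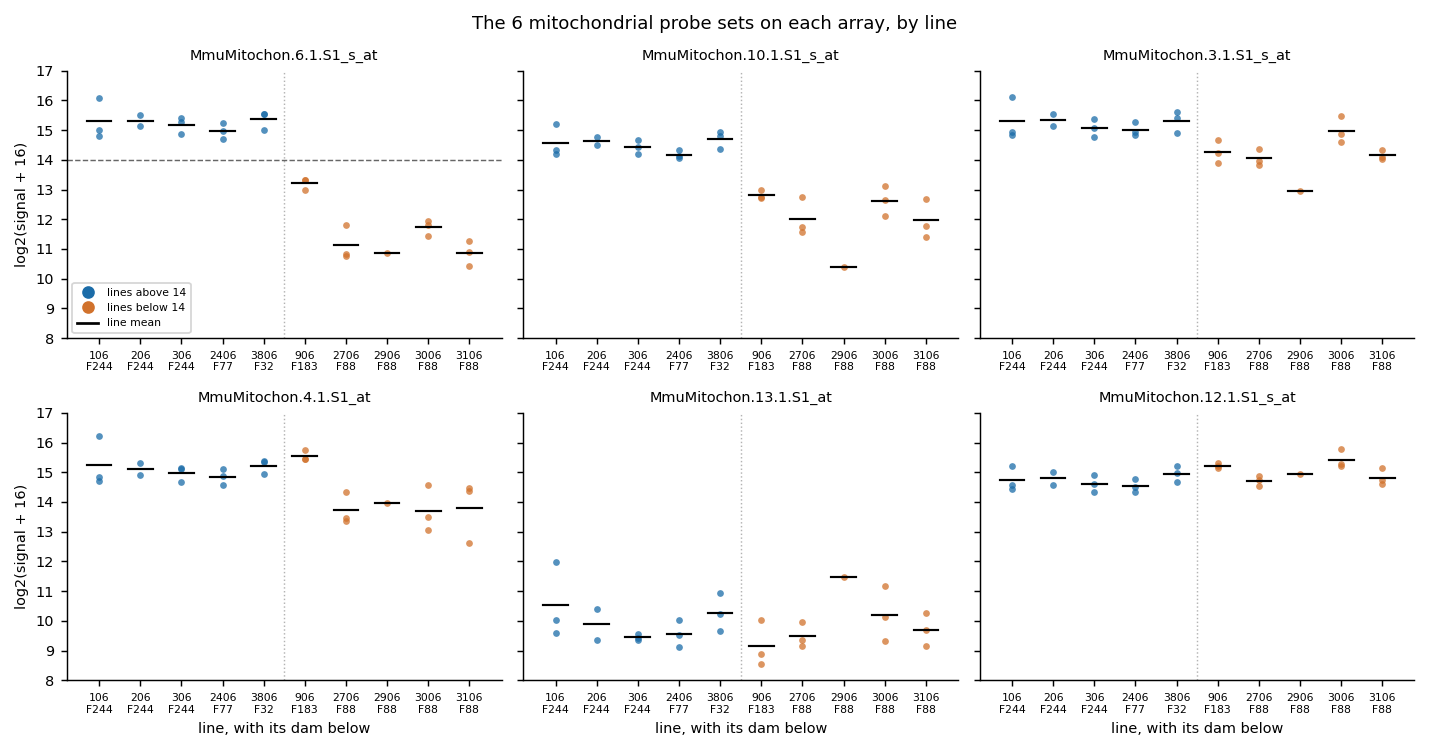
The 6 mitochondrial probe sets on each of the 27 arrays (points, log2(signal + 16)), with lines and their dams along the x axis, lines above 14 on the left and lines below 14 on the right; bars are line means and the dashed line marks the limit of 14. The probe set of the rule separates at 15.22 and 11.56 on average, MmuMitochon.4.1.S1_at is low in the lines of dam F88 alone, and MmuMitochon.12.1.S1_s_at and MmuMitochon.13.1.S1_at overlap.

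Beyond the probe sets named as mitochondrial, few transcripts followed the split. Mitochondrial probe sets were recognised by name only. Any other probe set that reads mitochondrial RNA would therefore have stayed in the test. Of 32850 probe sets tested with limma on line means, 24 differed at a Benjamini-Hochberg adjusted p under 0.05, which is 0.0731% of those tested. Of these, 16 (0.0487%) were higher and 8 (0.0244%) were lower in the lines above 14. A further view, without adjustment, gave 2498 probe sets with p under 0.05, or 7.6%. Line means did not overlap between the groups for 593 probe sets (1.81%), of which 299 were higher and 294 lower in the lines above 14. The median difference over 11317 genes, each read from its brightest probe set, was -0.0002 log2 units, and 49.98% of genes were higher in the lines above 14. The deposited values were scaled to the same trimmed mean on every array, so a general shift of the mean signal cannot be seen in them. This scaling does not fix the median signal, which ran from 94.1 to 159.7 over single arrays.

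Most of the passing probe sets were dim. The authors' detection calls put 15 of the 24 as present on 0 arrays, 9 on at least 1 array and 3 on all 27. Where a probe set was called present in neither group, the calls did not tell its signal from background. Its levels are then given with the adjusted p and without a fold. Such levels were not always low: the LOC701606 probe set reached 9.21 in line 3006. Line means did not overlap for any of the 24, and for 8 of them the single arrays did not overlap either. These probe sets were picked for their separation, and the share of all tested probe sets without overlap of single arrays was not counted. Some, such as the CLN3 probe set, entered the test only through arrays of the group where they were high. Of the 24, 13 carry no gene symbol in the annotation used here and 11 carry 1.

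**Figure D2:**
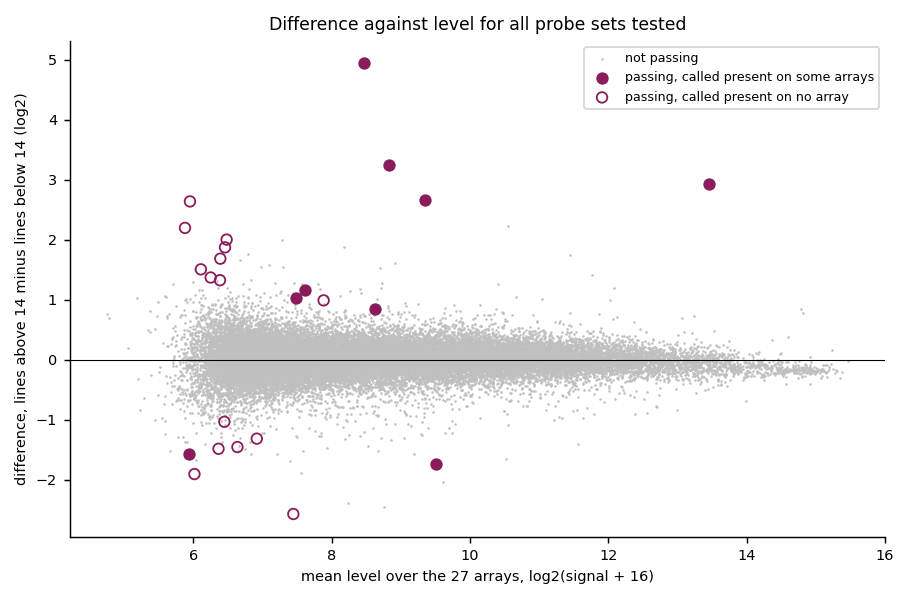
Difference between the lines above 14 and the lines below 14 (y axis, log2 units, positive where the lines above 14 are higher) against the mean level over the 27 arrays (x axis, log2(signal + 16)) for the 32850 probe sets tested. The 24 passing probe sets are drawn as circles, filled for the 9 called present on some arrays and open for the 15 called present on no array, and the open ones lie at the dim end.

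The clearest differences were in bright probe sets without a gene symbol, and the strongest of them was called present on 1 side of the split only. Which RNA these unnamed probe sets read is not known here, and whether any of it is mitochondrial was not tested. For a probe set of mitochondrial RNA, the separation could follow from the choice of lines. Mmu.6025.1.S1_at stood at 10.68, 10.91, 10.88, 10.68 and 11.13 in the lines above 14, against 5.88, 5.42, 6.02, 6.13 and 6.14 in the lines below it (adjusted p = 3.75e-08). It was called present on 14 of 14 arrays above 14 and on 0 of 13 below it. The values of the lines of 3 dams on the high side, and of 2 dams on the low side, each kept to a narrow range. With its level below 14 taken as background, the probe set was at least 30.5-fold higher in the lines above 14.

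Mmu.3044.15.S1_at stood at 10.32, 10.68, 10.26, 10.33 and 10.51 in the lines above 14, against 7.89, 7.11, 7.41, 6.60 and 6.84 in the lines below it. The difference was 3.25 ± 0.22 log2 units (SE, adjusted p = 5.01e-05), and it was called present on 14 of 14 arrays above 14 and on 8 of 13 below it. No array below 14 reached the lowest array above 14 for this probe set. Its name shares a number with 5 other tested probe sets, Mmu.3044.1.S1_x_at among them, and these differed by -0.29 to 0.17. Mmu.10209.2.S1_at was bright on both sides, at 15.17, 15.13, 14.89, 14.50 and 14.83 in the lines above 14, against 11.91, 11.05, 12.25, 12.40 and 12.20 in the lines below it (difference 2.94 ± 0.24, adjusted p = 0.000307). The other tested probe set of that number, Mmu.10209.1.S1_s_at, did not follow, at a difference of 0.05 and a mean level of 14.92.

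Mmu.6867.1.S1_at stood at 10.65, 10.72, 10.66, 10.31 and 10.63 in the lines above 14, against 7.83, 8.25, 7.41, 8.04 and 8.16 in the lines below it (difference 2.66 ± 0.17, adjusted p = 3.81e-05). Of 3 others with its number, Mmu.6867.1.A1_at differed by 1.88 (adjusted p = 0.282), whereas the brighter Mmu.6867.1.S1_s_at and Mmu.6867.3.S1_s_at differed by -0.22 and -0.07. Line 906, whose dam and sire both differ from those of the F88 lines, lay within their range for Mmu.10209.2.S1_at and Mmu.6867.1.S1_at. MmugDNA.11656.1.S1_at ran the other way, at 8.77, 8.78, 8.80, 8.76 and 8.39 in the lines above 14, against 10.60, 10.44, 10.85, 10.06 and 10.27 in the lines below it. It fell by 1.74 ± 0.16 log2 units (adjusted p = 0.000981) and was called present on all 27 arrays.

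**Figure D3:**
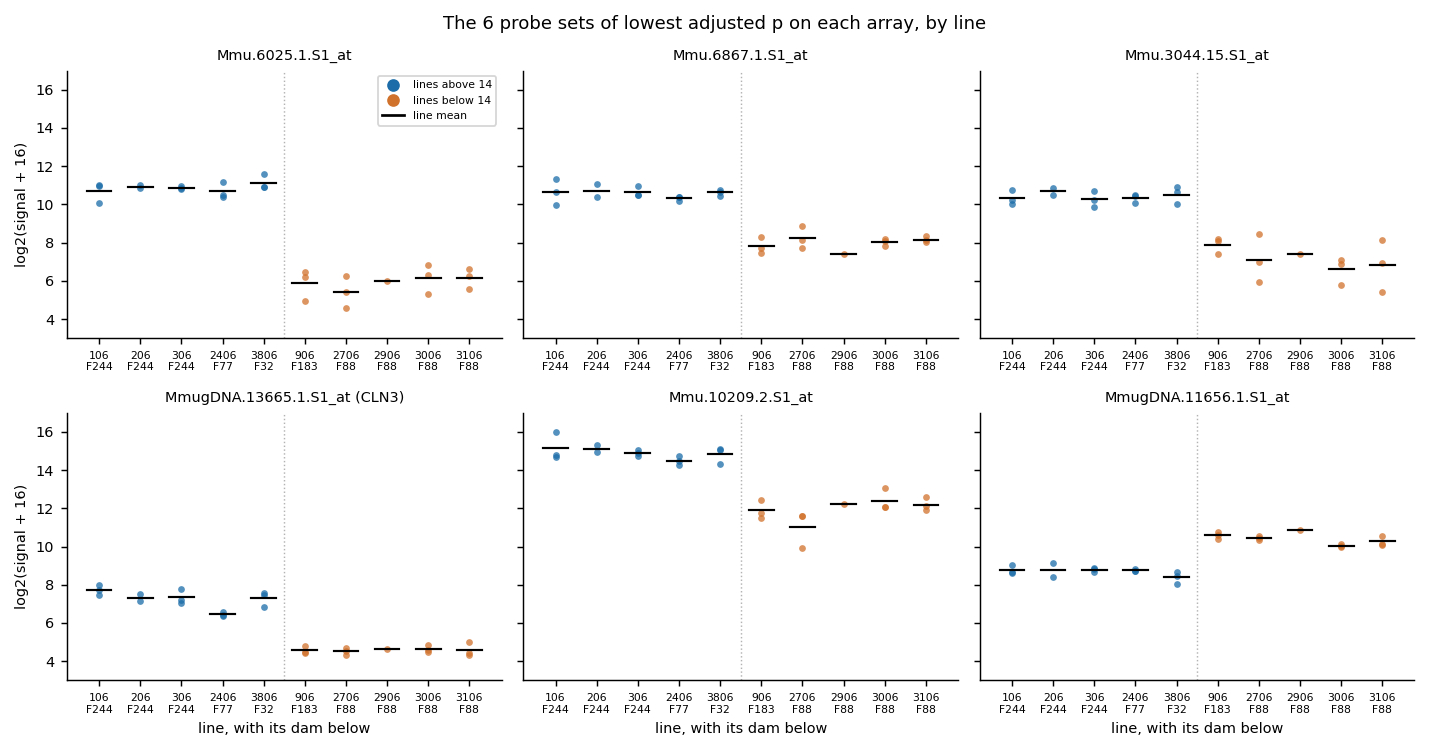
The 6 probe sets of lowest adjusted p on each array (points, log2(signal + 16)), with lines and their dams along the x axis, lines above 14 on the left and lines below 14 on the right; bars are line means. In 5 of the panels the lines above 14 are higher, in MmugDNA.11656.1.S1_at they are lower, and in none do single arrays of the groups overlap.

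The other unnamed probe sets were dimmer. MmugDNA.41113.1.S1_at averaged 8.15 ± 0.16 in the lines above 14 and 6.98 ± 0.34 in the lines below it (adjusted p = 0.0322), with present calls on 11 arrays above 14 and 2 below it. MmugDNA.34086.1.S1_at averaged 5.20 ± 0.51 above 14 and 6.78 ± 0.16 below it (adjusted p = 0.0243). It had present calls on 0 arrays above 14 and on only 3 of 13 below it, so no fold is given. MmugDNA.11719.1.S1_at, at 9.03 ± 0.17 above 14 and 8.19 ± 0.17 below it, passed at the limit. The remaining 5 without a symbol, MmugDNA.16481.1.S1_at and MmuSTS.2840.1.S1_at on the higher side and MmugDNA.16973.1.S1_at, MmugDNA.20124.1.S1_at and MmugDNA.6839.1.S1_at on the lower side, were called present on 0 arrays.

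By their brightest probe set, 7 genes of 11317 (0.0619%) passed, all of them higher in the lines above 14. LOC706091, an uncharacterised gene, was the only one with present calls, on 12 of 14 arrays above 14 and on 2 of 13 below it. It stood at 8.09, 8.03, 7.94, 7.71 and 8.25 in the lines above 14, against 7.02, 6.78, 7.30, 6.96 and 6.79 in the lines below it, and rose by 1.03 ± 0.15 log2 units (adjusted p = 0.0243). Its other probe set was 0.58 log2 units higher.

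The other 6 genes were called present on 0 arrays, so the calls did not tell their signal from background. ZFTA, a zinc finger gene known from fusions in human ependymoma, lay between 6.38 and 7.66 in the lines above 14 and between 4.32 and 5.12 in the lines below it (adjusted p = 0.00534). TRABD2A, a membrane protease that inactivates WNT ligands, lay between 6.81 and 7.82 above 14 and between 4.98 and 5.78 below it (adjusted p = 0.00255). Line means did not overlap in either, but single arrays did. The lowest array above 14 and the highest below it were 5.28 and 6.35 for ZFTA, and 6.14 and 6.50 for TRABD2A.

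TLR4, the receptor for bacterial lipopolysaccharide, lay between 6.89 and 8.05 in the lines above 14 and between 4.83 and 6.37 in the lines below it (adjusted p = 0.0352). S1PR2, a receptor for sphingosine 1-phosphate, lay between 6.67 and 7.28 above 14 and between 5.33 and 5.97 below it (adjusted p = 0.00881). FOXN1, the transcription factor of thymic epithelium, passed with adjusted p = 0.0243. MYADM, a membrane protein first described in myeloid cells, lay between 8.07 and 8.56 above 14 and between 7.18 and 7.54 below it (adjusted p = 0.0431). The groups did not overlap by line in any of these 4, but single arrays overlapped in TLR4, S1PR2 and MYADM. The lowest array above 14 and the highest below it were 5.38 and 6.66 for TLR4, 5.79 and 6.65 for S1PR2, and 7.48 and 8.41 for MYADM. For FOXN1 they were 6.13 and 6.12. Over 23 alternative settings, described at the end, the call held in 19 for S1PR2, 14 for FOXN1, 12 for TLR4 and 8 for MYADM.

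A further 4 genes passed in a probe set that is not their brightest, and in each the gene's other probe sets did not follow. CLN3 encodes a lysosomal membrane protein that is mutated in juvenile Batten disease. Its passing probe set stood at 7.71, 7.32, 7.36, 6.45 and 7.29 in the lines above 14, against 4.57, 4.53, 4.61, 4.63 and 4.58 in the lines below it (adjusted p = 0.000126). The low lines were nearly identical, at a level where the dimmest signals called present on an array lie (4.37 to 5.24 over the 27 arrays), and the other 2 CLN3 probe sets differed by 0.03 and 0.26 log2 units.

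SPG11, a gene of lysosome renewal mutated in hereditary spastic paraplegia, averaged 5.64 ± 0.29 in the lines above 14 and 7.12 ± 0.10 in the lines below it (adjusted p = 0.00186), while its other 2 probe sets differed by -0.11 and -0.09. LOC701606 averaged 6.23 ± 0.22 above 14 and 8.80 ± 0.60 below it (adjusted p = 0.00167), with its others between -0.22 and 0.24. OR5AR1, an olfactory receptor gene, averaged 5.93 ± 0.37 above 14 and 7.39 ± 0.26 below it (adjusted p = 0.0164), with its other at 0.04. All 4 passing probe sets were called present on 0 arrays. These 4 and the last unnamed probe sets above were picked out after their values were seen.

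Line means did not overlap for 185 genes, 1.63% of those tested, and the largest differences of these that did not pass are given by value. LOC700411 stood at 11.47, 11.71, 11.57, 11.13 and 11.65 in the lines above 14, against 10.74, 10.18, 10.08, 10.99 and 10.44 in the lines below it, with present calls on 14 arrays above 14 and 5 below it (difference 1.02 ± 0.19, adjusted p = 0.111). A second LOC700411 probe set ran in the opposite direction, at -0.34. DLGAP2, a scaffold protein of synapses, lay between 7.83 and 8.21 in the lines above 14 and between 6.39 and 7.38 in the lines below it (adjusted p = 0.0954). DGLUCY, a D-glutamate cyclase, NGB, the oxygen-binding neuroglobin, and ANHX, a homeobox gene, also separated and were called present on 0 arrays.

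On the lower side no gene passed by its brightest probe set. REL, an NF-kappa-B subunit, stood at 6.13, 5.67, 7.03, 5.78 and 5.55 in the lines above 14, against 7.33, 7.60, 7.16, 8.10 and 7.84 in the lines below it. It was called present on 3 arrays above 14 and 10 below it (difference -1.58 ± 0.28, adjusted p = 0.0897). LOC695645, present on all arrays, averaged 11.99 ± 0.18 above 14 and 12.89 ± 0.30 below it (difference -0.90 ± 0.16, adjusted p = 0.102). Both separated fully by line and missed the threshold.

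AMOTL2, an angiomotin family regulator of YAP, averaged 10.87 ± 0.17 in the lines above 14 and 11.84 ± 0.82 in the lines below it (adjusted p = 0.494), with line 3006 highest at 13.20. LOC720054 averaged 8.36 ± 0.33 above 14 and 9.66 ± 0.70 below it (adjusted p = 0.207), and LOC697234 7.48 ± 0.25 above 14 and 8.36 ± 0.54 below it (adjusted p = 0.352). RAPGEF4, an exchange factor for Rap that is switched on by cAMP, came closest to the threshold among the others (adjusted p = 0.0533). Like IL17RB, GPR35, EFCAB12, LOC706218 and the oxidative stress gene OSGIN1 it was called present on 0 arrays, and the olfactory receptor gene OR10A6 on 1.

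Counting dams instead of lines left 5 of the 24 calls. With the mean of each dam, 3 dams above 14 against 2 below it, the 5 were Mmu.6025.1.S1_at, Mmu.6867.1.S1_at, Mmu.10209.2.S1_at, the LOC701606 probe set and TLR4. Mmu.3044.15.S1_at missed at adjusted p = 0.057, with a difference of 2.98 log2 units. Without the 6 arrays with a GAPDH ratio over 3, which removes line 2906, 14 probe sets passed, 9 of them among the 24. Leaving out line 2906 alone gave 48 calls, and leaving out line 3006 gave 13.

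No nuclear gene of the mitochondrial lists passed the test. Over 12 lists of such genes 232 were tested, 111 higher and 121 lower in the lines above 14, with a median difference of -0.01 log2 units and a range from -0.59 to 0.69. At an unadjusted p under 0.05 there were 13 (5.6%), against 6.68% of all genes. The values of single members below are therefore descriptions.

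Among the nuclear genes of the respiratory chain and ATP synthase, assembly factors and regulators included, 44 of 65 were lower in the lines above 14, 0 passed and 2 had an unadjusted p under 0.05. In complex I, which takes electrons from NADH, 19 of 25 were lower and the median difference was -0.13 log2 units. NDUFA2, an accessory subunit, stood at 12.40, 12.37, 12.11, 12.73 and 12.77 in the lines above 14, against 12.72, 13.08, 13.49, 12.80 and 13.21 in the lines below it (difference -0.59 ± 0.18, adjusted p = 0.453). Its groups overlapped at lines 2406, 3806 and 906. NDUFA7, also an accessory subunit, averaged 12.24 ± 0.23 above 14 and 12.53 ± 0.17 below it (adjusted p = 0.679).

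In complexes II and III the median over 13 genes was -0.02 log2 units, with UQCRB, a complex III subunit, at 9.58 ± 0.13 above 14 and 9.23 ± 0.48 below it. TTC19, an assembly factor of complex III, averaged 10.83 ± 0.05 above 14 and 11.04 ± 0.23 below it. Complex IV, cytochrome oxidase, had a median of -0.03 over 12 genes. ATP synthase had 11 of 15 genes lower and a median of -0.13, with ATP5MC2, a subunit of the rotor ring, at 10.46 ± 0.16 above 14 and 10.77 ± 0.18 below it (adjusted p = 0.625). Line 2906 was the highest line for NDUFA2, COX6B1 and ATP5F1E and the lowest for COX8A, and without it the median of complex I was -0.07.

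Genes that copy, transcribe and translate the mitochondrial genome also had medians near 0. Of 63 mitochondrial ribosomal protein genes, 30 were higher and 33 lower, with a median of -0.03 log2 units. MRPL34 stood at 11.63, 11.59, 11.59, 11.79 and 11.68 in the lines above 14, against 11.08, 11.19, 11.29, 10.88 and 11.26 in the lines below it (difference 0.52 ± 0.12, adjusted p = 0.215). Its groups did not overlap, and neither did those of MRPL44, where line 2906 was lowest at 8.87. The 4 other probe sets of MRPL44 differed by -0.83 to 0.49, and so did not share a direction.

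The lowest adjusted p of any list member belonged to PRIMPOL, a primase-polymerase that works in the nucleus and in mitochondria. PRIMPOL stood at 9.65, 9.95, 9.76, 9.58 and 9.84 in the lines above 14, against 8.98, 9.29, 9.02, 8.83 and 9.23 in the lines below it, a difference of 0.69 ± 0.13 log2 units (adjusted p = 0.123). The groups did not overlap, and it did not pass. MTERF4, which takes part in assembly of the mitochondrial ribosome, averaged 10.59 ± 0.13 above 14 and 10.08 ± 0.34 below it (adjusted p = 0.486). A second MTERF4 probe set stood -0.14 log2 units apart. The median over the 14 genes of mitochondrial DNA replication and transcription was -0.03.

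Among 15 genes of mitochondrial RNA processing the median was 0.07 log2 units. TRMT10C, a subunit of the RNase P that cuts out mitochondrial transfer RNAs, averaged 11.24 ± 0.14 above 14 and 11.47 ± 0.32 below it. PRORP, the nuclease subunit of that enzyme, was called present on 0 arrays. Translation factors (21 genes), protein import (22), protein quality control (11), dynamics and mitophagy (10) and regulators of biogenesis (11) had medians between -0.02 and 0.03. TIMM10, a chaperone of the intermembrane space, averaged 12.09 ± 0.19 above 14 and 11.76 ± 0.17 below it (adjusted p = 0.604), and PRKAA1, a catalytic subunit of the energy sensor AMPK, 8.93 ± 0.23 above 14 and 8.53 ± 0.28 below it (adjusted p = 0.613).

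A further 6 members, of the lowest p in their lists, had higher means in the lines above 14, and 0 of them passed. MTIF2, a translation initiation factor, averaged 12.22 ± 0.04 above 14 and 11.98 ± 0.14 below it, and EARS2, which charges transfer RNA with glutamate, 9.18 ± 0.10 above 14 and 8.89 ± 0.23 below it. TIMM22, a channel for carrier proteins in the inner membrane, averaged 9.62 ± 0.29 above 14 and 9.12 ± 0.43 below it. OPA1, the GTPase of inner membrane fusion, averaged 10.48 ± 0.17 above 14 and 10.28 ± 0.16 below it, and HTRA2, a serine protease of the intermembrane space, 9.75 ± 0.11 above 14 and 9.61 ± 0.12 below it. CREB1, a transcription factor that responds to cAMP, averaged 10.24 ± 0.14 above 14 and 9.99 ± 0.29 below it. The adjusted p of these 6 lay between 0.634 and 0.822.

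**Figure D4:**
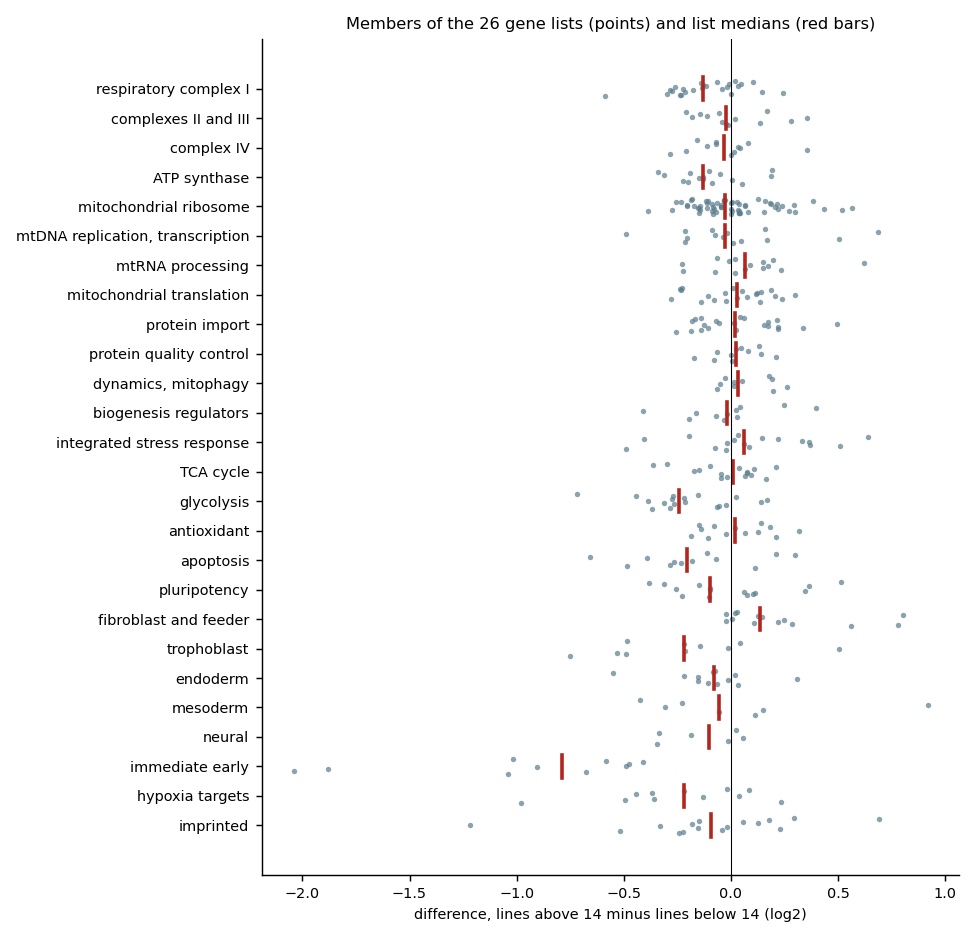
Differences between the lines above 14 and the lines below 14 (x axis, log2 units, positive where the lines above 14 are higher) for every tested member of 26 gene lists (points), with the median of each list as a red bar. The 12 lists of nuclear mitochondrial genes, at the top, have medians between -0.13 and 0.07, and the immediate early list stands lowest at -0.79.

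Glycolysis genes leaned lower in the lines above 14, by little, and 0 of 18 passed. The median was -0.24 log2 units, 15 of 18 were lower and 4 had an unadjusted p under 0.05 (22.2%, against 6.68% of all genes). LDHA, which turns pyruvate into lactate, stood at 12.93, 13.79, 13.70, 13.75 and 13.55 in the lines above 14, against 13.85, 13.73, 14.39, 13.97 and 13.99 in the lines below it (difference -0.44 ± 0.19, adjusted p = 0.618). SLC16A3, a lactate exporter, averaged 7.55 ± 0.26 above 14 and 8.27 ± 0.50 below it (adjusted p = 0.465), and the glucose transporter SLC2A1 11.13 ± 0.25 above 14 and 11.50 ± 0.23 below it (adjusted p = 0.634). The aldolase ALDOC averaged 10.28 ± 0.19 above 14 and 10.67 ± 0.28 below it (adjusted p = 0.607). Line 2906, with its GAPDH ratio of 13.29, was the highest for LDHA and SLC16A3, and without that line the list's median was -0.16. The mean level of the 18 genes ran from 11.48 to 11.63 in the lines above 14 and from 11.65 to 11.83 in the lines below it.

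The TCA cycle genes, which feed the respiratory chain, had a median of 0.01 log2 units over 16 genes, with 8 on either side of 0. Pyruvate carboxylase, PC, averaged 9.28 ± 0.16 above 14 and 9.58 ± 0.27 below it, and PDK2, a kinase that inhibits pyruvate dehydrogenase, 8.003 ± 0.11 above 14 and 7.79 ± 0.18 below it. Antioxidant genes (13) had a median of 0.02, with GPX4, which reduces lipid peroxides, at 13.78 ± 0.09 above 14 and 13.97 ± 0.21 below it. PRDX6, a peroxiredoxin, was dim, with present calls on 3 arrays above 14 and 0 below it. Genes of the integrated stress response, which mitochondrial faults can switch on, had a median of 0.06 over 17 genes. SLC7A11, the cystine transporter of that response, averaged 11.55 ± 0.20 above 14 and 10.90 ± 0.56 below it (adjusted p = 0.57), with the lowest value, 10.14, in line 2906. CHAC1, a glutathione-degrading enzyme, averaged 9.93 ± 0.28 above 14 and 9.42 ± 0.47 below it (adjusted p = 0.64), and 0 members passed.

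Genes of mitochondrial apoptosis had 9 of 12 members lower in the lines above 14 and a median of -0.21 log2 units, with 0 passing. MCL1, an antiapoptotic BCL2 family member, stood at 11.49, 11.35, 11.42, 11.44 and 11.39 in the lines above 14, against 11.50, 11.71, 11.90, 11.64 and 11.77 in the lines below it (difference -0.29 ± 0.12, adjusted p = 0.604). The groups touched without overlap at lines 106 and 906. A second MCL1 probe set was 0.18 log2 units higher in the lines above 14. BCL2L1 averaged 7.66 ± 0.45 above 14 and 8.14 ± 0.33 below it (adjusted p = 0.664).

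Immediate early genes, which growth factors and stress induce within minutes, had the lowest median of the 26 lists, at -0.79 log2 units. All 10 tested were lower in the lines above 14, 4 had an unadjusted p under 0.05 (40.0%, against 6.68% of all genes) and 0 passed. The highest lines of the list, 3006 and 3106, are both of dam F88. EGR2, a zinc finger factor of that class, stood at 8.31, 8.80, 8.57, 8.80 and 7.98 in the lines above 14, against 8.96, 9.52, 8.63, 12.29 and 13.25 in the lines below it (difference -2.04 ± 0.78, adjusted p = 0.581).

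EGR4 had the same pattern, at 6.02, 6.21, 6.66, 6.80 and 6.73 in the lines above 14, against 6.60, 7.91, 6.28, 10.27 and 10.76 in the lines below it. NR4A1, an orphan nuclear receptor, averaged 9.21 ± 0.29 above 14 and 10.23 ± 0.91 below it, with 11.30 in line 3006 and 11.12 in line 3106. IER2, induced by the same signals, averaged 11.32 ± 0.32 above 14 and 12.23 ± 0.75 below it (adjusted p = 0.535). In EGR2, EGR4 and NR4A1 lines 3006 and 3106 were the highest of the 10 lines. Line 2706 came next in EGR2 and EGR4, higher than each line above 14. The mean level of the 10 genes was 9.14, 9.26, 8.98, 9.08 and 8.69 in the lines above 14, against 9.22, 9.50, 8.62, 11.10 and 11.48 in the lines below it. Without line 3006 the list's median was -0.55, and without line 3106 it was -0.38.

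**Figure D5:**
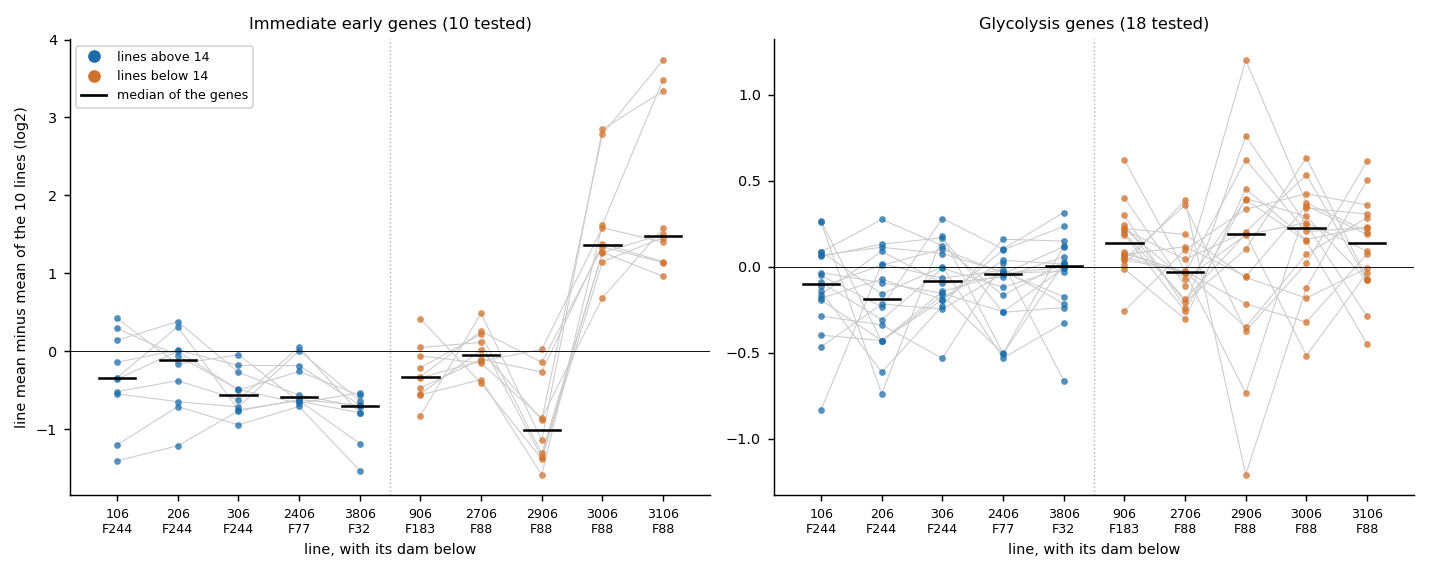
Line mean minus the mean of the 10 lines (y axis, log2 units) for 10 immediate early genes (left) and 18 glycolysis genes (right), with lines and their dams along the x axis, lines above 14 before lines below 14; points are genes, joined by grey lines within each group, and bars are medians. The immediate early genes are on average highest in lines 3006 and 3106, whereas the glycolysis genes differ by small amounts and scatter most in line 2906.

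Hypoxia targets shared members with the glycolysis list and had a median of -0.22 log2 units, with 8 of 11 lower and 0 passing. At an unadjusted p under 0.05 there were 4 (36.4%, against 6.68% of all genes). LDHA and SLC2A1 are among these 4 and among the 4 of the glycolysis list, so the counts are not separate. P4HA1, a collagen prolyl hydroxylase, stood at 9.83, 9.73, 9.77, 9.23 and 9.76 in the lines above 14, against 9.98, 9.96, 10.50, 10.10 and 10.25 in the lines below it, with no overlap (difference -0.49 ± 0.16, adjusted p = 0.465). A second P4HA1 probe set stood -0.09 log2 units apart. P4HA2, a related hydroxylase, averaged 8.88 ± 0.22 above 14 and 9.24 ± 0.12 below it (adjusted p = 0.578). ADM, a vasodilator peptide, averaged 8.23 ± 0.35 above 14 and 9.21 ± 1.29 below it, and its level below 14 was led by line 3006 at 11.31.

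Markers of feeder cells and of differentiation were compared because either could enter the scraped colonies, and a bulk array cannot tell fewer cells of a type from less RNA per cell. The feeders were mouse cells and the arrays were made for rhesus. How far the probe sets read mouse RNA is not known here, so the fibroblast list does not measure feeder content. Of 14 fibroblast and feeder markers, 12 were higher in the lines above 14, with a median of 0.14 log2 units, and 0 passed or had an unadjusted p under 0.05. Over the 15 with a probe set, summed signal ran from 42954 to 72713 in the lines above 14 and from 32285 to 58283 below it. Of these 15, 9 were called present on every array. S100A6, a calcium-binding protein of fibroblasts, averaged 10.77 ± 0.96 above 14 and 9.96 ± 1.18 below it (adjusted p = 0.796), and FN1, fibronectin, 11.74 ± 0.26 above 14 and 11.49 ± 0.24 below it (adjusted p = 0.771). A second S100A6 probe set ran the other way, at -0.23. The part of these markers in any result above was not tested.

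Trophoblast markers had 8 of 10 tested members lower and a median of -0.22 log2 units. Over the 13 with a probe set, summed signal ran from 5455 to 7471 in the lines above 14 and from 6480 to 9708 below it. Of these 13, 3 were called present on every array and 4, CDX2, GATA2, KRT7 and TP63, on 0 arrays. GATA2 had the lowest p of the list, at 6.77 ± 0.25 above 14 and 7.53 ± 0.42 below it without overlap of lines (adjusted p = 0.339), and its 2 other probe sets differed by -0.97 and -0.72. TEAD4, a trophectoderm factor that stem cells express too, averaged 11.22 ± 0.25 above 14 and 11.70 ± 0.28 below it (adjusted p = 0.544).

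Endoderm markers (12 tested) had a median of -0.08, mesoderm markers (7) of -0.06 and neural markers (6) of -0.10, with 0 passing in any. AFP, alpha-fetoprotein, averaged 9.86 ± 0.14 above 14 and 9.55 ± 0.39 below it (adjusted p = 0.741), while APOA1, an apolipoprotein, had present calls on 0 arrays above 14 and 2 below it. BMP4, a mesoderm-inducing ligand, averaged 9.50 ± 0.44 above 14 and 9.92 ± 0.49 below it (adjusted p = 0.756). SOX3, a neural progenitor factor, averaged 9.74 ± 0.34 above 14 and 10.07 ± 0.44 below it (adjusted p = 0.783), and PAX6, a factor of neural and eye development, had present calls on 0 arrays above 14 and 2 below it. TWIST1, a mesoderm and mesenchyme factor, averaged 10.14 ± 0.39 above 14 and 9.22 ± 0.96 below it (adjusted p = 0.626), and was lowest in line 2906 at 7.98.

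Pluripotency markers had a median of -0.10 log2 units over 15 genes, 7 of them higher and 8 lower. FOXD3, a factor of the pluripotent state, averaged 10.27 ± 0.31 above 14 and 10.65 ± 0.61 below it (adjusted p = 0.798). Imprinted genes, which are expressed from the allele of a single parent, had a median of -0.09 over 16 genes, and 0 passed. PHLDA2, a maternally expressed growth regulator of the placenta, stood at 9.02, 9.11, 9.31, 9.59 and 8.42 in the lines above 14, against 9.22, 11.02, 9.39, 12.36 and 9.55 in the lines below it (difference -1.22 ± 0.53, adjusted p = 0.635). Lines 2706 and 3006 carried that difference, and the remaining lines of both groups overlapped. MAGEL2, a paternally expressed gene, averaged 9.55 ± 0.22 above 14 and 9.88 ± 0.33 below it (adjusted p = 0.717).

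In all, the 26 lists held 401 tested genes. At an unadjusted p under 0.05 there were 30 (7.48%), against 6.68% of all genes, and 0 passed the adjusted threshold. Of the 26 list members named by rule that have other tested probe sets, 13 had at least 1 that ran the other way.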

How the data were processed

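Total RNA (300 ng per sample, per the labels' protocols) from 27 samples of 10 lines was labelled with biotin for Affymetrix rhesus arrays. Each deposited value is the intensity of a probe set on an array, made with GCOS per the submitters' processing notes; neither its version nor its settings are given in the sources. Their mean without the outer 2% at each end was 500.035 to 500.041 on every array, so they were already scaled. A second deposited table adds detection calls (present, marginal or absent), another kind of value made by the authors; it filled 1 blank intensity cell, and 0 other cells differed. Parents came from a deposited table of attributes.

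Of 52865 probe sets, 158 controls and the 6 named as mitochondrial were set aside, leaving 52701. Of these 24959 carry 1 symbol in the platform annotation, 358 several and 27384 none; 24616 symbols matched RefSeq genes by identifier. Probe sets above the array median on at least 3 arrays (32850) were tested on log2(signal + 16), which understates changes of dim genes. The test was limma 3.58.1 in R 4.3.3 over the 10 line means, with Benjamini-Hochberg adjustment over all probe sets tested. The filter took no account of the groups, so a probe set could enter through arrays of 1 group alone. The passing CLN3 probe set did so, with 5.01 as its highest array in the lines below 14. With no filter 25 probe sets passed, 21 of them among the 24. The fit was tested on simulated data. Python 3.11.15 and matplotlib 3.10.9 served for counts and plots. The bound for a probe set called present in a single group set the bright group's mean against, per array, the higher of its own level and the dimmest level called present.

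The grouping, the gene lists and the tests were chosen with earlier results of these data known. Genes named are the passing ones by brightest probe set, filled to 12 per direction with the largest differences among genes whose line means did not overlap, up to 5 unnamed passing probe sets per direction, and the 2 members of lowest p of each list. The other passing probe sets, and further members of the immediate early, glycolysis and hypoxia lists, were chosen after their values were seen. Alternatives were other pseudocounts (1 and 64), filters, normalizations, arrays, lines, covariates, blocks and moderation. Every sample column was used.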

Additional observations from a re-analysis of the deposited data

Results flagged for a closer look

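Within each group of 5 lines, a line was singled out where its gap to the nearest line exceeded 0.71 of the group's range (Dixon's ratio at 95%), which chance gives in about 1 of 20 groups. Of 212 groups 14 met this, a share near the chance rate, so the flags are given by value only. There were 4 each for lines 2406 and 2906, 3 for line 906, 2 for line 3806 and 1 for line 3106.

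Among the lines above 14, line 2406 stood apart at 10.31 for Mmu.6867.1.S1_at, with the other lines between 10.63 and 10.72, at 9.68 for MFF, a receptor of mitochondrial fission, at 9.72 for NR4A1 and at 9.23 for P4HA1. Line 3806 stood apart at 8.39 for MmugDNA.11656.1.S1_at, below 8.76 in the nearest line, and at 11.29 for FN1. Neither line left the side of its group for the 2 passing probe sets.

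Among the lines below 14, line 2906 stood apart with a GAPDH ratio of 13.29, and at 10.21 for COX8A, a subunit of cytochrome oxidase, 8.87 for MRPL44 and 9.96 for AFG3L2, a protease of the inner mitochondrial membrane. It was the lowest line of its group in all 3 genes, and it has 1 array. Line 906 stood apart at 15.55 for MmuMitochon.4.1.S1_at, against 13.95 in the nearest line, at 10.25 for CHAC1 and at 14.15 for DNMT3B. Line 3106 stood apart at 7.74 for MmugDNA.31929.1.S1_at (LOC701606), between the other lines below 14 and the lines above it.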

How the results depend on the processing

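Against 24 calls over line means, the count was 6 with a filter at the 75th percentile and 7 with a filter on present calls, both of which tested fewer probe sets. It was 14 without the 6 arrays of GAPDH ratio over 3 and 5 with dam means. Fits on all 27 arrays, with a random block for the line, gave 109 calls, 66 higher and 43 lower. With the array letter added as a fixed covariate there were 108. Arrays of different lines with the same letter had a median correlation of deviations from the line mean of 0.06 over 77 pairs, 30 of them above 0.1. For different letters it was -0.03 over 223 pairs, 47 of them above 0.1. Pairs of the same letter thus correlated somewhat more, and the letters were not taken to pair the samples in the main fit. The 4 arrays of highest median signal all carry the letter c, and without them 26 probe sets passed, 17 of them among the 24. These array fits use more residual degrees of freedom, and the correlation within lines was estimated at 0.18. Leaving out a line gave 13 to 48 calls, with 13 without line 3006, 15 without line 206 and 48 without line 2906. The other 9 settings gave between 19 and 33 calls. All 24 kept their direction in every setting that tested them. In 13 of the 24 the call held without any single line, and in 4 it held in every setting: Mmu.6025.1.S1_at, Mmu.6867.1.S1_at, Mmu.10209.2.S1_at and the LOC701606 probe set. The median kept its sign over 15 settings in 10 of the 26 lists and changed sign in 16, whose medians lay between -0.10 and 0.06. It ran from -0.29 to -0.14 for glycolysis, from -0.25 to -0.10 for apoptosis, from -0.34 to -0.10 for trophoblast, from -0.31 to -0.11 for hypoxia and from -1.02 to -0.38 for the immediate early list. For glycolysis the smallest size came with quantile normalization, and for trophoblast without the arrays of GAPDH ratio over 3. The number of lines, and the dim level of most passing probe sets, limit what can be told apart.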
